A study of Caenorhabditis elegans with 6 samples.

Results

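The 3 galectin genes in the data, *lec-2*, *lec-9* and *lec-10*, are 3 of the 85 genes of the deposited table, found as every row whose WormBase identifier maps to a *lec* symbol. They were followed in *Caenorhabditis elegans* at the young adult stage in 3 genotypes with 2 libraries each: wild-type N2 worms, *hlh-11* knockout (KO) worms and *hlh-11* overexpression (OE) worms. Each library was made from about 2000 synchronized whole worms that had been fed *Escherichia coli* OP50 at 20 °C. HLH-11 is a basic helix-loop-helix transcription factor. Its KO strain carries 1 CRISPR/Cas9 allele, a frameshift in the second exon, in the N2 background. For exogenous expression of HLH-11 the study describes constructs under the promoter of *hlh-11* and under tissue promoters (*gly-19* for the intestine, *rab-3* for neurons and *pgp-12* for the excretory cell), and which OE strain or promoter was sequenced is not given. A row for *hlh-11* is not among the 85, so the genotype labels could not be checked on the targeted gene.

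For each of the 85 genes the wild-type mean lay between the KO mean and the OE mean, so the table is a selection made on these same libraries. That selection makes the KO and OE changes of a gene opposite but does not set which is upward. The KO mean was above the wild type in 60 genes and below it in 25. Once the KO direction of a galectin gene is given, its OE direction follows. The tests of KO and OE against the wild type describe selected genes. The selection may also act on the size of the changes. The smallest log2 fold changes were -0.17 in KO (*ttr-51*) and -0.13 in OE (*col-144*).

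Galectins are lectins that bind beta-galactosides, sugars carried by glycoproteins and glycolipids, through a conserved carbohydrate-recognition domain. They are made in the cytoplasm and can leave the cell without a signal peptide. In *C. elegans* the family has tandem-repeat members, which carry a pair of such domains in 1 chain, and prototype members with a single domain. The worm intestine displays galectin-binding glycoconjugates, and worm galectins have been studied there in relation to toxins and stress. The annotation lists 12 *lec* genes, and the other 9 were not analysed here.

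*lec-2* (WBGene00002265) encodes a tandem-repeat type galectin. It lies on chromosome II of WBcel235 from 10009608 to 10016183 on the minus strand and has 4 annotated transcripts. Of these, 2 encode a protein of 1245 residues and the other 2 a protein of 278 residues. The long coding sequence adds a first part upstream of the last exons, whereas the transcripts of the short protein either start downstream of that part or hold it as a 5' untranslated region of 3037 bases. Transcript lengths run from 1170 to 4323 bases. The RPKM of *lec-2* was computed on a recovered length of 4197 bases, near the total of 4374 annotated exon bases. Its level is thus an average over long and short transcripts that the table does not separate. If the transcript of 1170 bases prevails, this RPKM understates the level, and the place of *lec-2* below the other galectin genes may not hold.

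*lec-9* (WBGene00002272) is a compact gene on chromosome X of WBcel235, from 17600487 to 17601503 on the plus strand. It has 1 annotated transcript of 4 exons and 539 bases, which encodes a prototype galectin of 140 residues, with 5' and 3' untranslated regions of 36 and 80 bases. *lec-10* (WBGene00002273) lies on chromosome V from 6488203 to 6489120 on the minus strand. Its 1 transcript has 3 exons and 803 bases and encodes a galectin of 192 residues, and its product is known for binding glycoconjugates of the intestine. The recovered lengths were 554 bases for *lec-9* and 737 bases for *lec-10*. No annotated gene overlapped any of the 3 on either strand. Reads shared between related *lec* genes could not be examined from the table. The 3 genes are on different chromosomes and are no neighbours of each other.

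**Figure D1:**
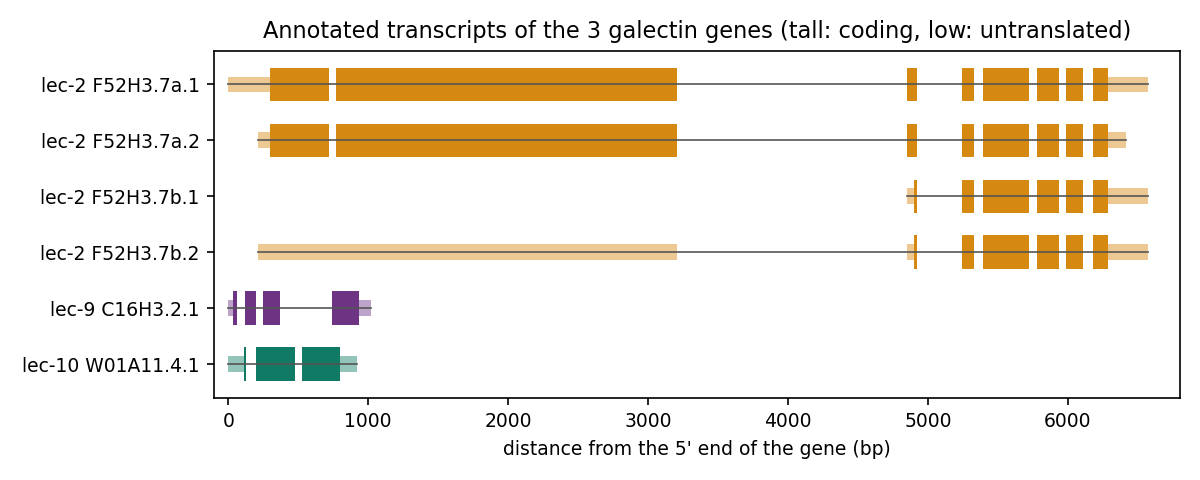
Annotated transcripts of *lec-2*, *lec-9* and *lec-10* drawn to scale by distance in base pairs from the 5' end of each gene, with tall blocks for coding and low blocks for untranslated exon parts. *lec-2* has 4 transcripts that share their last exons, and *lec-9* and *lec-10* have 1 short transcript each.

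Levels are in RPKM, reads scaled to the length of the gene and to the read total of its library. The library totals recovered from these values were 16538554 to 24023096 reads, and each galectin gene had 835 to 7851 reads per library. The counting error of a single value was therefore 1.13% to 3.46%. In wild-type worms *lec-10* was the most abundant of the 3 per length, at 229 ± 5.75 RPKM, followed by *lec-9* at 174 ± 6.73 RPKM and *lec-2* at 66.9 ± 5.31 RPKM (SD, n = 2 each). Of the 85 genes, *lec-10* ranked 13th in both wild-type libraries, *lec-9* 22nd and 20th, and *lec-2* 44th in both. The wild-type values of the 3 genes did not overlap.

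*lec-9* had the widest range of the 3 over the genotypes. Its level was 169 and 179 RPKM in the wild-type libraries, 327 and 310 RPKM in the KO libraries and 78.8 and 95.9 RPKM in the OE libraries. Both KO values were above both wild-type values and both OE values were below them. The selected genes share this separation: of the 60 genes with a higher KO mean, 60 (100%) had both KO values above and 59 (98.3%) had both OE values below the wild type. The lowest KO value was 1.73 times the highest wild-type value, and the highest OE value was 0.567 times the lowest wild-type value. As a ratio of means to the wild type, *lec-9* was at 1.83 ± 0.0985 in KO and at 0.502 ± 0.0719 in OE (SD propagated from both genotypes, n = 2 each).

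*lec-10* was at 233 and 224 RPKM in the wild-type libraries and rose to 323 and 327 RPKM in the KO libraries. In the OE libraries it was at 151 and 180 RPKM. The genotypes did not overlap here either, but the steps were smaller than for *lec-9*. The ratio of means was 1.42 ± 0.0387 in KO and 0.724 ± 0.0936 in OE (SD, n = 2 each). In KO worms *lec-9* and *lec-10* reached about the same level, 318 ± 11.9 and 325 ± 3.35 RPKM (SD, n = 2 each), and their library values overlapped.

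*lec-2*, the longest gene and the lowest of the 3 in RPKM, was at 70.7 and 63.2 RPKM in the wild-type libraries, 97.7 and 98.5 RPKM in KO and 49.4 and 57.6 RPKM in OE. Its KO libraries differed from each other by 0.802%, which is within their counting error. Its OE values came closest to the wild type, the highest OE value being 0.911 times the lowest wild-type value. The ratio of means was 1.47 ± 0.117 in KO and 0.799 ± 0.107 in OE (SD, n = 2 each).

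**Figure D2:**
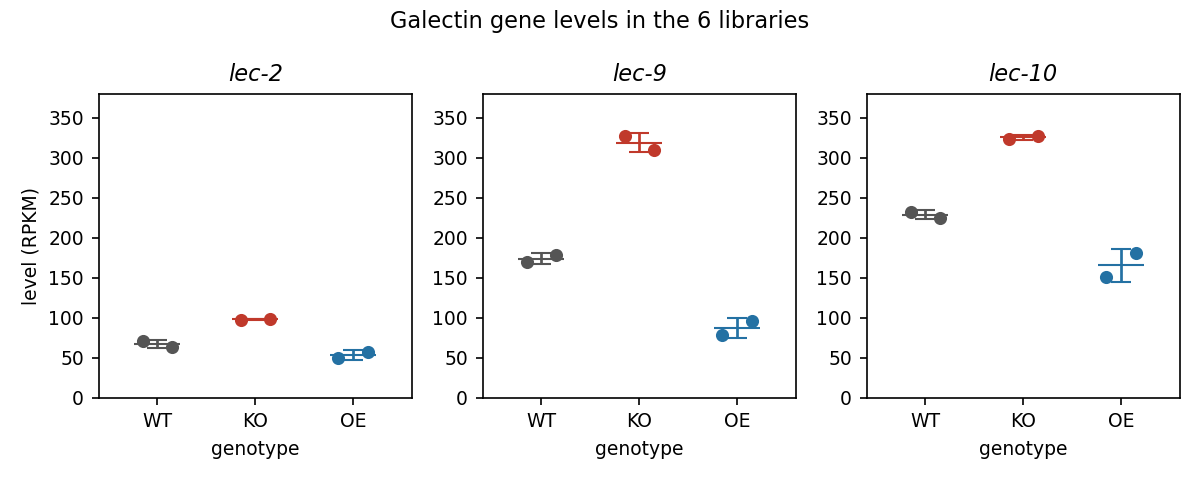
Level in RPKM of each galectin gene in wild-type (WT), KO and OE worms, with 1 point per library and a bar for the mean ± SD (n = 2). Every KO point lies above and every OE point below the wild-type points of its gene, as in 60 (KO) and 59 (OE) of the 60 genes with a higher KO mean, with the widest steps in *lec-9* (means of 174 RPKM for wild type, 318 RPKM for KO and 87.4 RPKM for OE).

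To compare the genotypes, limma was fitted to log2(RPKM + 0.5) of all 85 genes, with p-values adjusted over the 85 by Benjamini-Hochberg and a threshold of 0.05. A log2 fold change is a difference on that scale, and with the spread pooled over genes its standard error was 0.157 for every gene. The residual SD of the galectin genes themselves was 0.108 to 0.123, below the pooled SD of 0.157. The labels do not say whether the 2 libraries of a genotype came from separate cultures, so the p-values reflect only how far these libraries differed, which may be technical.

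All 3 galectin genes were higher in KO than in the wild type, where 70.6% of the 85 genes were called higher. With 3 selected genes, the count is no result about the galectins. The log2 fold change was 0.87 for *lec-9* (adjusted p = 2.09e-07 from limma), 0.55 for *lec-2* (adjusted p = 8.72e-04) and 0.51 for *lec-10* (adjusted p = 0.00206). Their median was 0.55, and that of the 60 genes with a higher KO mean was 0.77. Among those 60, *lec-9* ranked 24th by size of change, *lec-2* 42nd and *lec-10* 44th.

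All 3 were lower in OE than in the wild type, where 60.0% of the 85 genes were called lower. For genes higher in KO the selection sets this direction, so the count is again no result about the galectins. The log2 fold change was -0.995 for *lec-9* (adjusted p = 5.11e-09 from limma) and -0.47 for *lec-10* (adjusted p = 0.00417). For *lec-2* it was -0.32 with an adjusted p of 0.0461, close to the threshold. This last call was lost without wild type replicate 1 (adjusted p = 0.179) or OE replicate 1 (adjusted p = 0.162), without either KO library (adjusted p = 0.0663 in limma) and with the spread of *lec-2* alone (adjusted p = 0.0729). Of the 60 genes with a lower OE mean, whose median was -0.58, *lec-9* ranked 12th by size of change, *lec-10* 38th and *lec-2* 50th.

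**Figure D3:**
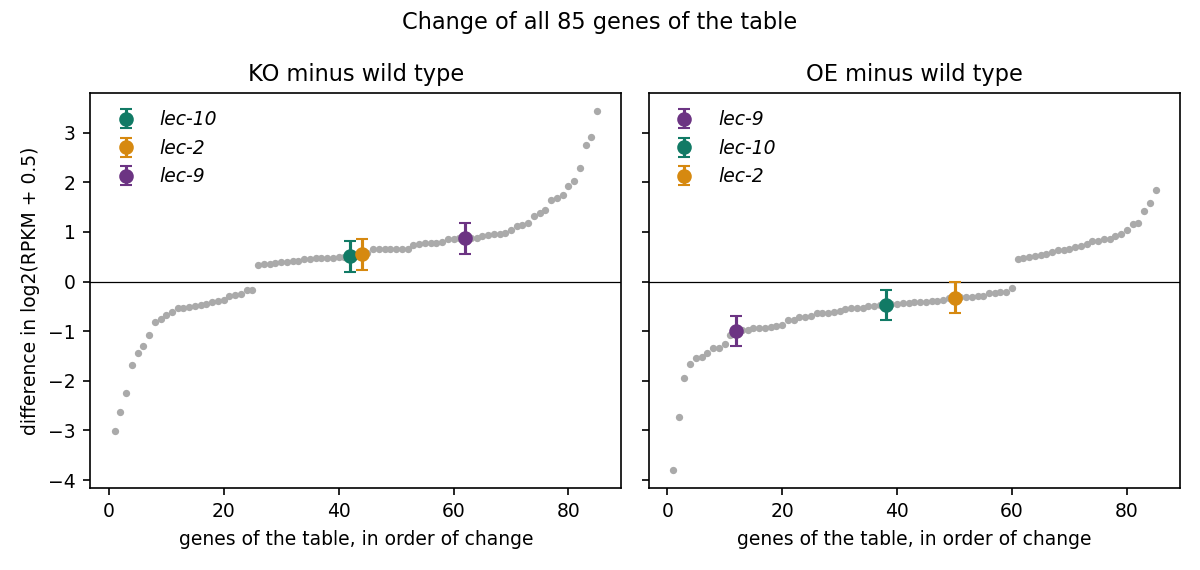
Difference in log2(RPKM + 0.5) of KO (left) and OE (right) from the wild type for all 85 genes in order of change, with the 3 galectin genes in colour and their 95% intervals from limma. *lec-9* lies at 0.87 in KO and -0.995 in OE, whereas *lec-2* and *lec-10* lie at 0.51 to 0.55 in KO and -0.32 to -0.47 in OE. The latter are smaller than the median change of the genes with the same direction (0.77 in KO and -0.58 in OE).

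KO and OE were also compared directly, which leaves the wild-type libraries out of the estimate. *lec-9* was 3.64 times as high in KO as in OE by mean RPKM, *lec-10* 1.96 times and *lec-2* 1.84 times. The log2 differences were 1.87, 0.98 and 0.87 in the same order, and all 3 passed in limma (adjusted p = 1.11e-25, 2.71e-09 and 8.49e-08), as did 70.6% of the 85 genes in this direction. The selection favours a difference between KO and OE in either direction, and all 85 genes passed, 60 higher and 25 lower in KO. These calls thus say nothing particular about the galectins. The very small p-values follow from treating the spread pooled over genes as known exactly. With the spread of each gene alone (limma without empirical Bayes), the adjusted p were 0.00233, 0.00441 and 0.00533 in the same order.

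Whether a gene moved as far in KO as in OE was tested by the sum of its log2 fold changes, which is 0 when both are of equal size. The sum was 0.23 for *lec-2* (95% interval -0.31 to 0.76), -0.13 for *lec-9* (-0.66 to 0.41) and 0.04 for *lec-10* (-0.50 to 0.57). None of the 3 passed in limma (adjusted p = 0.820, 0.888 and 0.965; 0 at an unadjusted p under 0.05), where 11.8% of the 85 genes did in either direction. That share stands for 10 genes, and leaving out wild type replicate 1 or 2 reduced them to 4 and 2 genes. With intervals this wide, equal size is not shown.

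The ratio of a pair of galectin genes within a library does not depend on the library's total, which cancels. Per length, *lec-9* stood at 0.727 and 0.796 of *lec-10* in the wild-type libraries, at 1.01 and 0.946 in the KO libraries and at 0.523 and 0.532 in the OE libraries. The genotypes did not overlap: against *lec-10* in the same library, *lec-9* was higher in both KO libraries and lower in both OE libraries than in either wild-type library. Relative to *lec-2*, *lec-9* was at 2.39 and 2.83 in the wild type, 3.34 and 3.15 in KO and 1.60 and 1.67 in OE, again without overlap.

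By contrast, the ratio of *lec-10* to *lec-2* stayed within a narrow range. It was 3.29 and 3.55 in the wild-type libraries, 3.30 and 3.32 in KO and 3.05 and 3.13 in OE. The KO values lay between the wild-type values, whereas the OE values lay below all others. Of the 9 comparisons of these ratios, 8 did not overlap between genotypes, where 80.6% of such comparisons did not over all 1770 pairs of the 60 genes with a higher KO mean. The count is thus no result about the galectins.

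To test the ratios, limma was also fitted to the differences in log2(RPKM + 0.5) of those 1770 pairs, a test chosen after the data were seen, with p-values adjusted over the pairs, which share genes and are not independent. In OE, *lec-9* fell against *lec-10* by 0.53 (adjusted p = 0.0113 from limma) and against *lec-2* by 0.67 (adjusted p = 0.00452) on the log2 scale, where 44.6% of the pairs passed in either direction. The call against *lec-10* was lost without wild type replicate 2 (adjusted p = 0.0569). In KO, the ratio of *lec-9* to *lec-10* was higher by 0.36 with an adjusted p of 0.0495, a call lost in 6 of 9 alternatives, among them leaving out either wild-type library or either KO library (adjusted p = 0.0720 to 0.291), and that of *lec-9* to *lec-2* by 0.32 without passing (adjusted p = 0.0919), where 47.9% of the pairs passed. Between KO and OE both ratios of *lec-9* differed, by 0.89 and 0.99 (adjusted p = 2.31e-04 and 1.68e-04 from limma), as did 73.1% of the pairs. The ratio of *lec-10* to *lec-2* passed in no comparison (adjusted p = 0.393 to 0.810 from limma; 0 at an unadjusted p under 0.05). Its 95% intervals were -0.34 to 0.25 for KO against the wild type, -0.44 to 0.15 for OE against the wild type and -0.19 to 0.40 for KO against OE, so a like response of both genes is not shown.

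**Figure D4:**
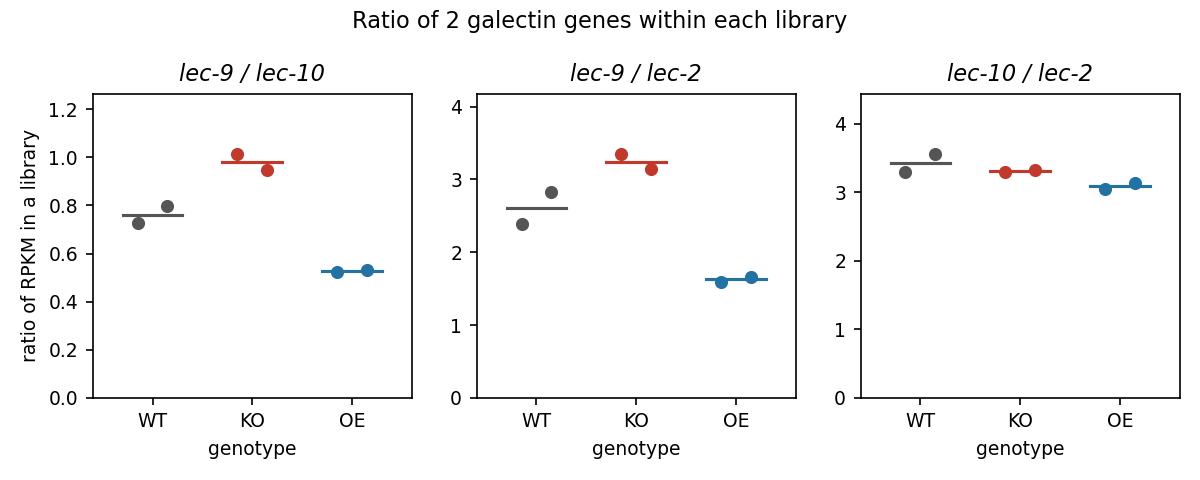
Ratio of RPKM of 2 galectin genes within each library, with 1 point per library and a line for the mean of the genotype. The ratio of *lec-9* to *lec-10* had means of 0.762 in the wild type, 0.980 in KO and 0.528 in OE, while that of *lec-10* to *lec-2* stayed between 3.05 and 3.55 in all 6 libraries.

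In all 3 galectin genes OE replicate 1 had the lower value of the 2 OE libraries. OE replicate 2 was at 1.17 times OE replicate 1 for *lec-2*, 1.22 times for *lec-9* and 1.20 times for *lec-10*. The same held for 51 of the 60 genes with a higher KO mean, over which the median was 1.16 times, and for 16 of the other 25 genes. Between the wild-type libraries the galectin genes moved in both directions, from 0.894 to 1.06 times.

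The genes whose pattern over the 6 libraries was most like that of each galectin gene were found by the root mean square distance between their log2 levels, each taken relative to its own wild-type mean. For *lec-9* they were *F22B7.9* (distance 0.0828), *pck-1* (0.103), which encodes phosphoenolpyruvate carboxykinase of gluconeogenesis, and *lbp-7* (0.151), which encodes a fatty acid-binding protein. All 3 were at 1.76 to 2.06 times the wild type in KO and at 0.521 to 0.538 times in OE. The distance from *lec-9* to the other galectin genes was larger, 0.372 to *lec-10* and 0.436 to *lec-2*, against a median of 0.481 over all other genes of the table.

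*lec-10* was nearest to *cal-5* (0.0556), a calmodulin-related gene, to *ctsa-1.2* (0.0679), a cathepsin A homolog, and to *C16B8.3* (0.0731). *lec-2* was nearest to the collagen gene *col-81* (0.0691), the aspartyl protease gene *asp-5* (0.0740) and again *cal-5* (0.0773). *lec-2* and *lec-10* were at a distance of 0.0946 from each other, farther than each was from the genes just named for it. The median over all other genes of the table was 0.468 for *lec-2* and 0.431 for *lec-10*. These distances describe 6 libraries of genes that had all been selected for opposite changes.

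Other gene lists give the setting. The table holds 4 genes of the C-type lectins, which bind sugars through another protein fold, and in KO 3 of them were called higher, against 70.6% of the table, and 1, *clec-10*, was called lower. Their log2 fold changes ran from -0.46 to 1.32 in KO and from -1.55 to 0.77 in OE. Of 7 lysosomal and digestive genes, 5 were higher and 1 was lower in KO and 1 did not pass, with a median of 0.49. The table holds none of *galt-1*, *fut-1*, *fut-6* and *fut-8*, enzymes that build fucose- and galactose-bearing glycans.

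Markers of sperm and cuticle moved in the same directions as the galectin genes. The 6 sperm genes of the table summed to 636 to 806 RPKM in the wild-type libraries, 1288 to 1328 RPKM in KO and 417 to 489 RPKM in OE, and all 6 were called higher in KO and lower in OE, against 70.6% and 60.0% of the table. The 7 collagen genes summed to 5404 to 6024, 8018 to 8673 and 4268 to 4567 RPKM in the same order, and 7 were called higher in KO and 5 lower in OE. Single collagen genes changed unevenly, with log2 fold changes of 0.39 to 3.43 in KO (median 2.03) and -3.80 to -0.13 in OE (median -0.39). Here too, the selection sets only that the KO and OE changes of a gene are opposite. Sperm and collagen transcripts also change with developmental age, and the part of age or of tissue proportions in the galectin values was not tested. In whole worms, more cells of a type and more RNA per cell cannot be told apart. Of the markers of the intestine, only *act-5* is in the table, at a log2 fold change of 0.35 in KO, which passed, and -0.30 in OE, which did not pass.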

How the data were processed

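Polyadenylated RNA of whole worms was sequenced in 6 libraries. The authors aligned the reads to WBcel235 with TopHat2, used DESeq2, and per the labels ran FastQC 0.11.5. The read counter, use of strand and annotation release are not given in the sources used here. RPKM values were deposited by the authors as a table of 85 genes by 6 libraries, and all were matched to symbols by identifier. Structures and coordinates came from the Ensembl annotation of WBcel235.

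Reads were recovered from the RPKM steps: with 1 total for each library and 1 length for each gene, all 510 values came to whole reads within 1e-06 reads. Each total rests on 2 to 6 genes at an annotated length, so totals and reads are inferred. In simulated data a first version doubled 1 total, and the revised procedure returned 6 of 6 totals and the reads of all 85 genes. The simulation gave more genes an annotated length than supported any total in the data, and the procedure had been revised on it. It is therefore no independent check of the recovered totals and reads. Counting errors, 100 divided by the square root of the reads, cover counting noise only. Over the 85 genes, libraries of a genotype differed by more than that (chi-square per degree of freedom 10.4 to 19.9). By this measure none were duplicates, and all 6 were kept as labelled replicates.

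From these, log2(RPKM + 0.5) of all 85 genes and 6 libraries was tested with limma 3.58.1 under R 4.3.3 (two-sided, constant prior), p-values being adjusted by Benjamini-Hochberg over all 85 and called under 0.05. Since the estimated prior had infinite degrees of freedom, every gene received the pooled SD of 0.157, although a gene has 3 residual degrees of freedom of its own. In 50 simulations of KO against wild type at that SD, limma called 78% of genes with a true log2 change of 0.5, 100% of those with 1 and 2.36% of unchanged genes. Every simulated gene had the same spread and none was selected, so these shares do not describe errors among the selected genes. Alternatives were other pseudocounts, a filter on RPKM, other variance models, a replicate block, limma voom on recovered reads, 2 groups at a time and leaving out each library. With only selected genes in the table, no other scaling of the libraries was tried.

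The galectin genes, the gene lists and the tests were chosen with earlier results of these data known. Named genes are the galectins and, for each, the 3 genes with the smallest root mean square distance in log2 values relative to the wild-type mean. Genes of the lists are also named: *galt-1*, *fut-1*, *fut-6* and *fut-8*, *act-5* as the intestine marker found, and *clec-10*, singled out after its values were seen. The limma fit to ratios of 2 genes was added after the data were seen.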

Additional observations from a re-analysis of the deposited data

How the results depend on the processing

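Across 14 alternatives for each comparison, *lec-9* and *lec-10* kept their direction and passed the threshold of limma in KO, in OE and between KO and OE, and *lec-2* did so in KO and between KO and OE. The largest adjusted p of these was 0.0420, for *lec-10* in OE. The 14 were not all distinct. Leaving out either library of the genotype not compared gave the same fit as using only the 2 compared. The OE change of *lec-2* did not pass in 7 of the 14, and those without either KO library or with only wild type and OE are the same fit. Its log2 fold change of -0.32 was the same with the replicate block (adjusted p = 0.0718), without empirical Bayes (0.0729) and with only wild type and OE in the fit (0.0663), and it ranged from -0.43 to -0.21 when 1 library was left out. With the block, 79 genes were called in KO and 73 in OE, against 80 and 76. Same-numbered libraries did not deviate together (correlations -0.14 to -0.11 between genotypes over 85 genes), so the numbers were not taken as pairs. The sum of the KO and OE changes passed for no galectin gene in any of 13 alternatives. When 1 library was left out, its sign turned for *lec-9* without OE replicate 1 (range -0.27 to 0.015), and for *lec-10* without OE replicate 2 or wild type replicate 2 (range -0.092 to 0.17, -0.014 for the latter). Over the 85 genes it passed for 10, for 4 and 2 without wild type replicate 1 and 2, and for 0 without empirical Bayes in limma (8 at an unadjusted p under 0.05). Ratios of 2 galectin genes were refitted under 9 alternatives chosen after the data were seen. Here too, leaving out either library of the genotype not compared gave the same fit. The ratio of *lec-9* to *lec-10* in KO did not pass with a pseudocount of 0.1 (log2 difference 0.36, adjusted p = 0.0566), with the replicate block (0.36, adjusted p = 0.0832) or when either wild-type library or either KO library was left out (range 0.30 to 0.43 when 1 library was left out). In OE it ranged from -0.59 to -0.46 and did not pass without wild type replicate 2. The sign of *lec-10* to *lec-2* in KO turned without wild type replicate 2 (range -0.098 to 0.012). The other 6 ratio comparisons kept direction and call. Where leaving out a library left 1 in a genotype, that library was assumed to vary like the others. The cause of these shifts was not tested. With 2 libraries a genotype, the number of libraries and not the reads limits precision.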
